A study of Mus musculus with 12 samples.

Results

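The cytochrome P450 genes of families 1 to 4 encode the heme enzymes that oxidise drugs, steroids and fatty acids. They were taken here as every gene of the deposited table whose symbol starts with Cyp, a family digit from 1 to 4 and a subfamily letter. The rule found 81 of the 22053 listed genes, and 31 of the 81 reached 1 FPKM (fragments per kilobase, scaled to the mapped reads of the library) in at least 4 of the 12 mice and were tested. RNA was sequenced from whole kidney of wild-type C57BL/6 mice in 3 groups of 4, with 1 library per mouse. Control mice ate the diet without adenine, and CKD mice ate the same diet with 0.2% adenine from 8 to 16 weeks of age, which produces chronic kidney disease. Both received weekly i.p. PBS. CKD+Fe mice ate the adenine diet and were injected i.p. each week with 0.5 g/kg of iron dextran in place of PBS. The sources used here do not give the sex of the mice, and 4 Y-linked genes (Eif2s3y, Ddx3y, Kdm5d and Uty) were expressed in all 12, at 2.12 FPKM or more. The mice are called by the numbers of their labels, and values in each group are listed in the order 012811, 012822, 042301 and 042310 (control), 021320, 022301, 110310 and 120102 (CKD), and 042702, 062910, 111710 and 122320 (CKD+Fe).

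P450 enzymes of these families sit mostly in the endoplasmic reticulum and draw electrons from P450 oxidoreductase and cytochrome b5. Families 1 to 3 are best known for the metabolism of drugs, toxins, steroids and retinoids, and families 2 and 4 also convert arachidonic acid, family 2 by epoxidation and family 4 by hydroxylation at the end of the chain. In the kidney most of this activity is placed in the proximal tubule, where the products act on vessel tone and sodium transport, and in male mice several of the genes depend on androgens or growth hormone.

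The FPKM values of all listed genes summed to 607951 to 707843 in control, 503438 to 603556 in CKD and 536139 to 572074 in CKD+Fe mice. As a rough estimate, 1 FPKM of a 2 kb transcript was taken as 37.5 to 51.3 reads. It rests on the median of low values inside a preset window, which bounds the answer, so depth was not measured. Over the 13148 genes tested, the median log2 fold change from control to CKD mice was 0.50, and those of the P450 genes stand beside that shift. In each group 1 mouse lay apart from the others, control 042301, CKD 110310 and CKD+Fe 042702, with 442 to 806 genes at least 2-fold from the rest of its group. The 13 proximal tubule markers were all expressed, and their summed level ran from 7110 to 8910 FPKM among control, from 1120 to 2110 among CKD and from 1190 to 2960 among CKD+Fe mice. The 7 macrophage markers summed to 108 to 227, 1630 to 3390 and 1490 to 3410 FPKM, respectively.

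The 81 P450 genes together gave 5502, 6355, 3798 and 6416 FPKM in the 4 control mice, 1349, 789, 1056 and 987 FPKM in the 4 CKD mice and 1006, 1791, 1877 and 1968 FPKM in the 4 CKD+Fe mice. Every mouse on adenine was below every control mouse, and CKD+Fe mouse 042702 alone of its group lay within the CKD range. As a share of the FPKM of all genes the sum was 0.537% to 1.06% in control, 0.145% to 0.264% in CKD and 0.18% to 0.358% in CKD+Fe mice. Whole tissue cannot tell fewer cells of a type from less RNA per cell. The sum of the proximal tubule markers was lower in the same mice, and its part in the P450 values was not tested.

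**Figure D1:**
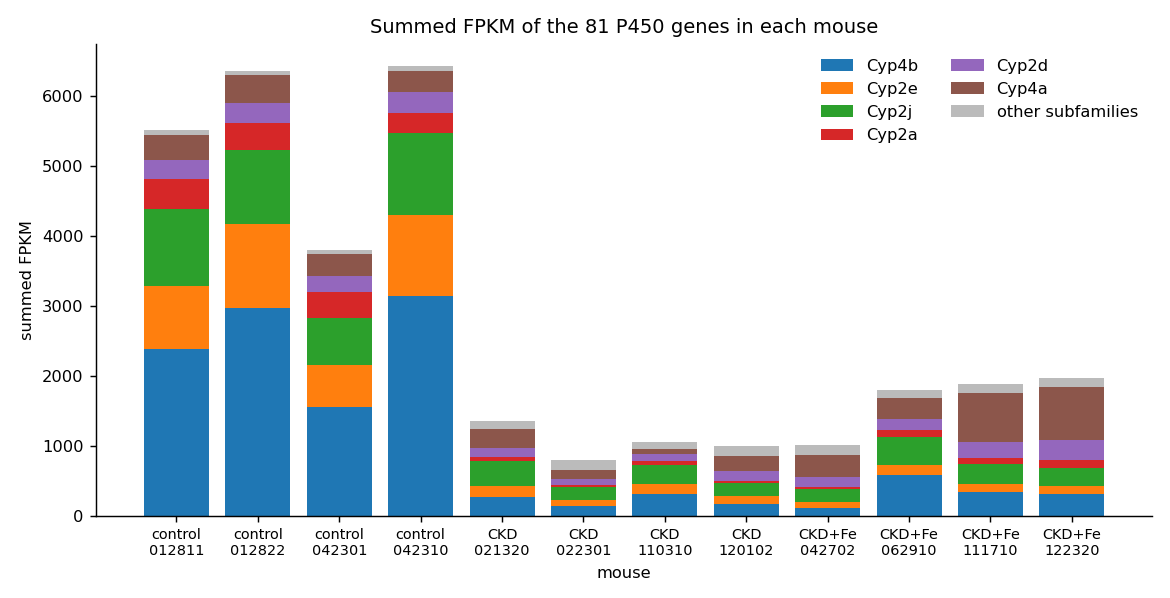
Summed FPKM of the 81 P450 genes in each of the 12 mice, stacked by subfamily. The control bars stand at 3798 to 6416 FPKM and are filled mainly by Cyp4b, Cyp2e and Cyp2j. Cyp4a is the widest band in 3 of the CKD+Fe mice and also in CKD mouse 120102.

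The make-up of the sum differed as well. Cyp4b1 alone gave 40.9% to 48.9% of it in control mice, 16.2% to 29.5% in CKD mice and 10.9% to 32.4% in CKD+Fe mice. The fatty acid hydroxylases Cyp4a10, Cyp4a14 and Cyp4a31 together gave 3.69% to 6.86% in control, 7.42% to 22.3% in CKD and 16.5% to 38.2% in CKD+Fe mice. Cyp4b1 was the most abundant P450 transcript per length in all 8 control and CKD mice and in CKD+Fe mouse 062910, and Cyp4a14 was the most abundant in the other 3 CKD+Fe mice.

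In CKD mice the abundant P450 genes were lower than in control mice and several scarce ones higher. In CKD against control mice 16 of the 31 tested P450 genes fell (51.6%, where 13.3% of all genes tested fell) and 11 rose (35.5%, where 54.6% of all genes rose), by limma on log2(FPKM + 1) with a Benjamini-Hochberg adjusted p under 0.05 over all genes. Together 27 of the 31 were called, where 67.9% of all genes were. The median log2 fold change of the 31 was -0.89, against 0.50 for all genes, and 10 of the 31 lay above the median of all genes. All 10 P450 genes with a control mean of at least 100 FPKM fell. Of the 14 with a control mean under 10 FPKM, 9 rose and 2 fell. These classes are cut on the control values that also enter the fold change. The share of all genes at such levels that rose or fell was not counted, so the class counts have no background beside them. For 15 P450 genes every CKD mouse was below every control mouse (10.5% of all genes), and for 9 every CKD mouse was above (44.6% of all genes).

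Scaling changed which genes were called higher. When the mice were rescaled by the median of ratios, which brought the median of all genes to -0.03, 7 rose and 18 fell, and with quantile normalization 6 rose and 20 fell. Shares of all genes under these scalings are not given, so these counts cannot be set against the shares above. The 16 that fell and 6 of those that rose (Cyp1b1, Cyp2d22, Cyp2s1, Cyp4f16, Cyp4f18 and Cyp4v3) had the same call under all 3 scalings. The filter requires 1 FPKM in 4 mice, and 23 of the 31 met it in all 12 mice. Cyp2d12 met it through control mice alone, Cyp3a13 through adenine-fed mice alone, and Cyp2f2 through 3 control mice and 1 CKD+Fe mouse. The place of these genes in the counts of CKD against control is therefore partly set by the filter.

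**Figure D2:**
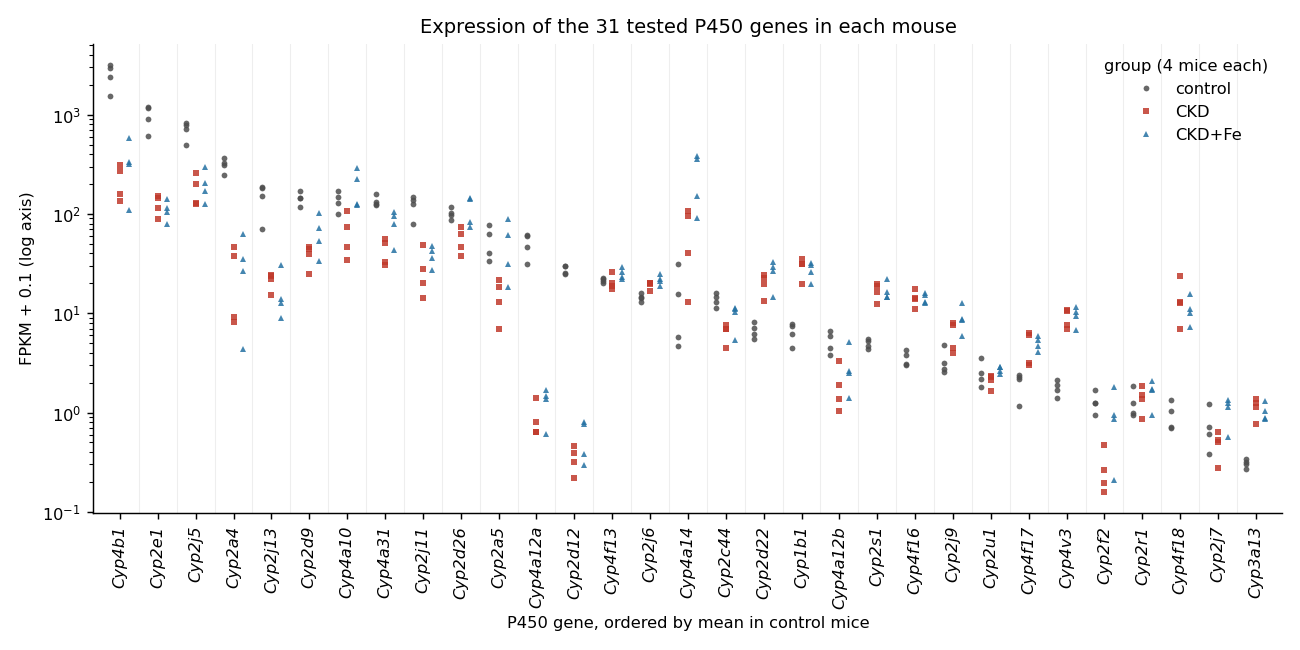
FPKM of the 31 tested P450 genes in each mouse on a log axis (0.1 added for drawing), ordered by their mean in control mice, with 4 points per group. At the left, from Cyp4b1 at 2510 FPKM down, the control points lie above the CKD points, and toward the right end most CKD and CKD+Fe points lie above the control points.

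Cyp4b1 (ENSMUSG00000028713, chr4:115624725-115647723, minus strand), which oxidises medium-chain fatty acids and activates several plant toxins, had the highest control mean of all 81 genes. Its level was 2382, 2966, 1554 and 3138 FPKM in the 4 control mice, 269, 133, 311 and 159 FPKM in the 4 CKD mice and 109, 579.8, 331 and 315 FPKM in the 4 CKD+Fe mice. The lowest control mouse, 042301, was still far above the highest mouse on adenine, and the CKD and CKD+Fe groups overlapped. Cyp4b1 had a log2 fold change of -3.55 ± 0.43 (SE, adjusted p = 1.15e-05) in CKD against control and 0.47 ± 0.43 (SE, adjusted p = 0.964) in CKD+Fe against CKD mice (limma with Benjamini-Hochberg adjustment, as for every adjusted p below, with ± giving the standard error, SE).

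Cyp2e1 (ENSMUSG00000025479, chr7:140763739-140774987, plus strand), the enzyme that oxidises ethanol and acetaminophen, was second. Its level was 902, 1205, 602 and 1155 FPKM in the 4 control mice, 152, 89.8, 144 and 114 FPKM in the 4 CKD mice and 78.2, 139.7, 115 and 104 FPKM in the 4 CKD+Fe mice. Both groups on adenine lay below all control mice by a wide margin, and these groups overlapped. It fell in CKD, with a log2 fold change of -2.92 ± 0.24 (SE, adjusted p = 6.21e-07), and with iron the log2 fold change was -0.19 ± 0.24 (SE, adjusted p = 0.982). Mean FPKM in CKD+Fe mice was 8.85-fold lower than in control mice (log2 fold change -3.11 ± 0.24 (SE, adjusted p = 6.11e-07)).

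Cyp2j5, an arachidonic acid epoxygenase of the proximal tubule (ENSMUSG00000052520, chr4:96628773-96664154, minus strand), was measured at 778, 725, 497 and 831 FPKM in the 4 control mice, 257, 126, 199 and 129 FPKM in the 4 CKD mice and 127, 296, 205 and 170.4 FPKM in the 4 CKD+Fe mice. The control mice were all above the adenine-fed mice, with CKD+Fe mouse 062910 nearest to them. Cyp2j5 fell in CKD, with a log2 fold change of -2.03 ± 0.28 (SE, adjusted p = 3.46e-05), and with iron it was 0.17 ± 0.28 (SE, adjusted p = 0.99). Its neighbour Cyp2j13 (ENSMUSG00000028571, chr4:96027534-96077546, minus strand) read 152, 182, 70.3 and 187 FPKM in the 4 control mice, 24.4, 23.5, 21.8 and 15.2 FPKM in the 4 CKD mice and 13.9, 30.6, 12.7 and 8.82 FPKM in the 4 CKD+Fe mice, again with no control mouse inside the range of the others. Cyp2j13 fell in CKD, with a log2 fold change of -2.67 ± 0.35 (SE, adjusted p = 2.20e-05), and its log2 fold change with iron, -0.46 ± 0.35 (SE, adjusted p = 0.958), was the most negative of the 31. The 8 Cyp2j genes lie within 637 kb of chromosome 4, and they did not move together. Of the 6 tested, Cyp2j5, Cyp2j11 and Cyp2j13 fell, Cyp2j6 and Cyp2j9 rose by 0.39 and 0.69, and Cyp2j7, at 0.635 ± 0.355 FPKM in control and 0.383 ± 0.15 FPKM in CKD mice (SD, n = 4), had a log2 fold change of -0.22 (adjusted p = 0.282), which was called lower with quantile normalization (-0.86, adjusted p = 0.00112). The rises of Cyp2j6 and Cyp2j9 stand beside a median of 0.50 over all genes and were lost under both other scalings, where Cyp2j6 had log2 fold changes of -0.20 (median of ratios) and -0.04 (quantile normalization) and Cyp2j9 had 0.19 and -0.11.

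The steroid and drug hydroxylases of the Cyp2a and Cyp2d clusters fell to different depths. Cyp2a4, a steroid hydroxylase (ENSMUSG00000074254, chr7:26307169-26315088, plus strand), and Cyp2a5, a coumarin and nicotine hydroxylase (ENSMUSG00000005547, chr7:26835305-26843548, plus strand), are near copies, and 62.0% and 63.0% of the 50-base words of their transcripts occur in no other gene, so that single-end reads could be split between them. Cyp2a4 was 363, 310.2, 329 and 245 FPKM in the 4 control mice, 46.9, 9.05, 37.4 and 8.05 FPKM in the 4 CKD mice and 4.24, 62.3, 26.8 and 35.05 FPKM in the 4 CKD+Fe mice. The lowest control mouse had 245 FPKM and the highest adenine-fed mouse 62.3 FPKM, and CKD+Fe mouse 042702 was the lowest of all 12. Cyp2a5 was 62.3, 76.6, 40.1 and 33.4 FPKM in the 4 control mice, 18.1, 6.89, 12.9 and 21.7 FPKM in the 4 CKD mice and 18.4, 31.1, 61.8 and 89.7 FPKM in the 4 CKD+Fe mice. Here the CKD mice were below all control mice, while the CKD+Fe mice spanned the CKD and the control range. Both fell in CKD, Cyp2a4 with a log2 fold change of -3.94 ± 0.67 (SE, adjusted p = 0.000192) and Cyp2a5 with -1.80 ± 0.45 (SE, adjusted p = 0.00295). Against control mice, CKD+Fe mice had a log2 fold change of -3.69 ± 0.67 (SE, adjusted p = 0.000367) for Cyp2a4 and -0.24 ± 0.45 (SE, adjusted p = 0.645) for Cyp2a5. The ratio of Cyp2a5 to Cyp2a4 in FPKM was 0.122 to 0.247 in control, 0.345 to 2.7 in CKD and 0.498 to 4.33 in CKD+Fe mice, and did not overlap between control mice and either other group.

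The promoters of the pair, from the RefSeq table for GRCm38.p6 (250 bases before the start site and 50 after it), are shown because the genes diverged in level while their promoters hardly differ. Over 299 aligned bases they differed at 5 (98.3% identical). Capitals mark the letters TATAAA. The Cyp2a4 window is chr7:26306942-26307241 on the plus strand and the Cyp2a5 window is chr7:26835089-26835388 on the plus strand.
Cyp2a4: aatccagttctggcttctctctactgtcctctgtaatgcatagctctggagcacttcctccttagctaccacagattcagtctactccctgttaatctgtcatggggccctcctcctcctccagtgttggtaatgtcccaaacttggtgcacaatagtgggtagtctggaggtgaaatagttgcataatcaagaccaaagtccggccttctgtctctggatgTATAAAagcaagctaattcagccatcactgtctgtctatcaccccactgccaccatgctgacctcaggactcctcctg
Cyp2a5: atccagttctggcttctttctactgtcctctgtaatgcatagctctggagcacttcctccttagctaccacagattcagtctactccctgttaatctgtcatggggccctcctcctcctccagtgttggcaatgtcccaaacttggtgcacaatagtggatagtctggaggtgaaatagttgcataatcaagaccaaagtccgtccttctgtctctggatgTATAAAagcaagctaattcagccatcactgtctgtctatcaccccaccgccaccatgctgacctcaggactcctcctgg
In both the TATAAA begins within 30 bases before the start site, at -28 and -29.

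The Cyp2d cluster holds 9 genes within 424 kb of chromosome 15, of which 4 were tested. Cyp2d12 (ENSMUSG00000096852, chr15:82555108-82559413, plus strand) showed the widest gap of the cluster, with 29.7, 24.9, 25.2 and 30.1 FPKM in the 4 control mice, 0.36, 0.119, 0.22 and 0.287 FPKM in the 4 CKD mice and 0.284, 0.199, 0.675 and 0.712 FPKM in the 4 CKD+Fe mice. It was nearly absent in all adenine-fed mice, at 0.712 FPKM or less, and the mean FPKM was 112-fold lower in CKD than in control mice. On the log2(FPKM + 1) scale, which understates the change of low values, the fold change was -4.51 ± 0.15 (SE, adjusted p = 8.19e-10). Cyp2d9, a testosterone hydroxylase (ENSMUSG00000068086, chr15:82452377-82456827, plus strand), was 145, 143, 118 and 169 FPKM in the 4 control mice, 44.4, 24.7, 46.9 and 39.5 FPKM in the 4 CKD mice and 33.5, 71.3, 52.99 and 102 FPKM in the 4 CKD+Fe mice. All adenine-fed mice were below the control mice, and CKD+Fe mouse 122320 came closest. Cyp2d9 had a log2 fold change of -1.89 ± 0.28 (SE, adjusted p = 6.99e-05) in CKD and 0.66 ± 0.28 (SE, adjusted p = 0.8) with iron (unadjusted p = 0.0372).

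Cyp2d26 (ENSMUSG00000022445, chr15:82790107-82794245, minus strand) had 102, 116, 86.5 and 97.6 FPKM in the 4 control mice, 62.2, 45.9, 38.00 and 74.2 FPKM in the 4 CKD mice and 82.1, 73.5, 141 and 145 FPKM in the 4 CKD+Fe mice. The CKD mice were below all control mice, the CKD+Fe mice lay on both sides of the control range, and CKD+Fe mouse 062910 was just under the highest CKD mouse. Cyp2d26 had a log2 fold change of -0.89 ± 0.24 (SE, adjusted p = 0.00545) in CKD, 0.97 ± 0.24 (SE, adjusted p = 0.4) with iron (unadjusted p = 0.0015) and 0.07 ± 0.24 (SE, adjusted p = 0.801) in CKD+Fe against control mice, where its sign turned with the median of ratios (-0.53). Cyp2d22, the fourth tested gene of the cluster, went the other way and rose from 6.66 ± 1.12 to 20.01 ± 4.84 FPKM (SD, n = 4), a log2 fold change of 1.43 ± 0.24 (SE, adjusted p = 0.000155). Within a mouse the ratio of Cyp2d22 to Cyp2d26 in FPKM was 0.0557 to 0.0811 in control and 0.318 to 0.496 in CKD mice.

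Cyp2c and Cyp2f are represented by 1 tested gene each. Cyp2c44, a renal epoxygenase and the only 1 of 15 Cyp2c genes above the filter, went from 13.6 ± 2.08 to 6.41 ± 1.38 FPKM (SD, n = 4), with a log2 fold change of -0.99 ± 0.22 (SE, adjusted p = 0.00138). Cyp2f2, known for activating naphthalene in the lung, went from 1.19 ± 0.313 to 0.174 ± 0.142 FPKM, with a log2 fold change of -0.90 ± 0.22 (SE, adjusted p = 0.00302). Every CKD mouse was below every control mouse for both. Cyp2f2 met the filter through 3 control mice and 1 CKD+Fe mouse, so its place among the genes that fell is partly set by the filter. The vitamin D hydroxylase Cyp2r1 and the fatty acid hydroxylase Cyp2u1 did not pass the test in CKD, with log2 fold changes of 0.10 and -0.17 (adjusted p = 0.668 and 0.357). Under the other scalings Cyp2u1 was called lower with the median of ratios (-0.60, adjusted p = 0.00371) and with quantile normalization (-0.99, adjusted p = 7e-05), and Cyp2r1 turned to -0.25 (adjusted p = 0.274) and -0.70 (adjusted p = 0.00534).

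The Cyp4a genes, the omega-hydroxylases of fatty acids, lie within 380 kb of chromosome 4 beside Cyp4b1, and 5 of the 8 were tested. On the log2(FPKM + 1) scale Cyp4a12a (ENSMUSG00000066071, chr4:115299046-115332815, plus strand), the arachidonic acid hydroxylase of the male mouse kidney, fell further than any other tested P450 gene. In mean FPKM Cyp2d12 fell further, by 112-fold. Cyp4a12a was 31.3, 59.2, 46.5 and 60.6 FPKM in the 4 control mice, 0.535, 0.698, 0.534 and 1.3 FPKM in the 4 CKD mice and 0.508, 1.57, 1.36 and 1.26 FPKM in the 4 CKD+Fe mice. The control mice stood at 31.3 FPKM or more and no adenine-fed mouse passed 1.57 FPKM. Cyp4a12a had a log2 fold change of -4.81 ± 0.23 (SE, adjusted p = 1.87e-08) in CKD and 0.29 ± 0.23 (SE, adjusted p = 0.958) with iron, and the mean FPKM was 64.5-fold lower in CKD. Its near copy Cyp4a12b, which shares 49.4% of its 50-base words with Cyp4a12a, had a log2 fold change of -1.16 ± 0.29 (SE, adjusted p = 0.00301), from 5.08 ± 1.33 to 1.8 ± 0.986 FPKM (SD, n = 4). Cyp4a12a exceeded Cyp4a12b in every control mouse, by a ratio of 7.22 to 12.7 in FPKM, and was below it in every CKD and CKD+Fe mouse, at a ratio of 0.168 to 0.74 and 0.311 to 0.541. How the quantifier divided shared reads is not given in the sources used here, and its part in these ratios was not tested.

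Androgen-dependent genes were lower in the same mice as Cyp4a12a. The 5 kidney genes listed as androgen-dependent (Kap, Slco1a1, Slc7a13, Acsm3 and Odc1) all fell in CKD, with a median log2 fold change of -4.56. Their sum ran from 66400 to 90900 FPKM among control, from 1110 to 7770 among CKD and from 2110 to 10100 among CKD+Fe mice. Kap, with means of 73020, 3585 and 4437 FPKM, makes up most of that sum. Slc7a13 is also among the proximal tubule markers, so the 2 lists overlap. The part of the androgen-dependent genes in the P450 values was not tested.

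Cyp4a10 and Cyp4a14 are known as targets of the fatty acid receptor PPARα and lie near each other. Cyp4a10 (ENSMUSG00000066072, chr4:115518264-115533649, plus strand) was 147, 171, 129 and 98.8 FPKM in the 4 control mice, 107, 46.1, 34.6 and 74.5 FPKM in the 4 CKD mice and 123, 125, 225 and 288 FPKM in the 4 CKD+Fe mice. CKD mouse 021320 lay just above the lowest control mouse, and no CKD+Fe mouse was as low as any CKD mouse. Cyp4a10 had a log2 fold change of -1.15 ± 0.34 (SE, adjusted p = 0.00917) in CKD, 1.55 ± 0.34 (SE, adjusted p = 0.254) with iron (unadjusted p = 0.000503, p = 0.0286 in an exact two-sided permutation test, which can give no smaller p for 4 against 4) and 0.41 ± 0.34 (SE, adjusted p = 0.31) in CKD+Fe against control mice. The sign of the last value turned with the median of ratios (-0.20). Of the 50-base words of Cyp4a10, 70.2% occur in no other gene, and the share was 79.4% for Cyp4a31, 78.2% for Cyp2d9 and 82.6% for Cyp4f16, so that these values are uncertain to that extent.

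Cyp4a14 (ENSMUSG00000028715, chr4:115486200-115496142, minus strand), of which 99.8% of the words are unique, was 15.4, 31.4, 4.54 and 5.6 FPKM in the 4 control mice, 108, 40.05, 12.9 and 94.2 FPKM in the 4 CKD mice and 150.4, 90.7, 385 and 358 FPKM in the 4 CKD+Fe mice. CKD mouse 110310 stayed within the control range, and all 4 CKD+Fe mice were above all control mice. The log2 fold change in CKD was 2.06 ± 0.69 (SE, adjusted p = 0.0176), with an exact two-sided permutation p of 0.0857. That call was lost without control mouse 042301 or 042310 or without CKD mouse 021320 or 120102 (adjusted p = 0.051 to 0.0573), and under both other scalings (log2 fold change 1.48, adjusted p = 0.0822, and 1.76, adjusted p = 0.0573). With iron the log2 fold change was 2.09 ± 0.69 (SE, adjusted p = 0.59) (unadjusted p = 0.00965). Against control mice the CKD+Fe value was 4.15 ± 0.69 (SE, adjusted p = 0.000193), or 17.3-fold in mean FPKM, the widest rise of the 31 in that comparison.

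Cyp4a31 (ENSMUSG00000028712, chr4:115563649-115579015, plus strand), a close relative of Cyp4a10, was 157, 124, 127 and 132 FPKM in the 4 control mice, 55.7, 32.7, 30.8 and 51.4 FPKM in the 4 CKD mice and 43.5, 79.5, 95.1 and 106 FPKM in the 4 CKD+Fe mice. The CKD mice were below all control mice, and 3 of the 4 CKD+Fe mice lay between the 2 groups. Cyp4a31 had a log2 fold change of -1.68 ± 0.26 (SE, adjusted p = 7.85e-05) in CKD, 0.88 ± 0.26 (SE, adjusted p = 0.462) with iron (unadjusted p = 0.00424) and -0.80 ± 0.26 (SE, adjusted p = 0.0142) in CKD+Fe against control mice, a call lost with quantile normalization (-0.68, adjusted p = 0.0854). Ppara, the gene of the receptor, was 7.27 ± 2.68 FPKM in control and 8.01 ± 4.78 FPKM in CKD mice (SD, n = 4), with a log2 fold change of 0.05 (adjusted p = 0.928).

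**Figure D3:**
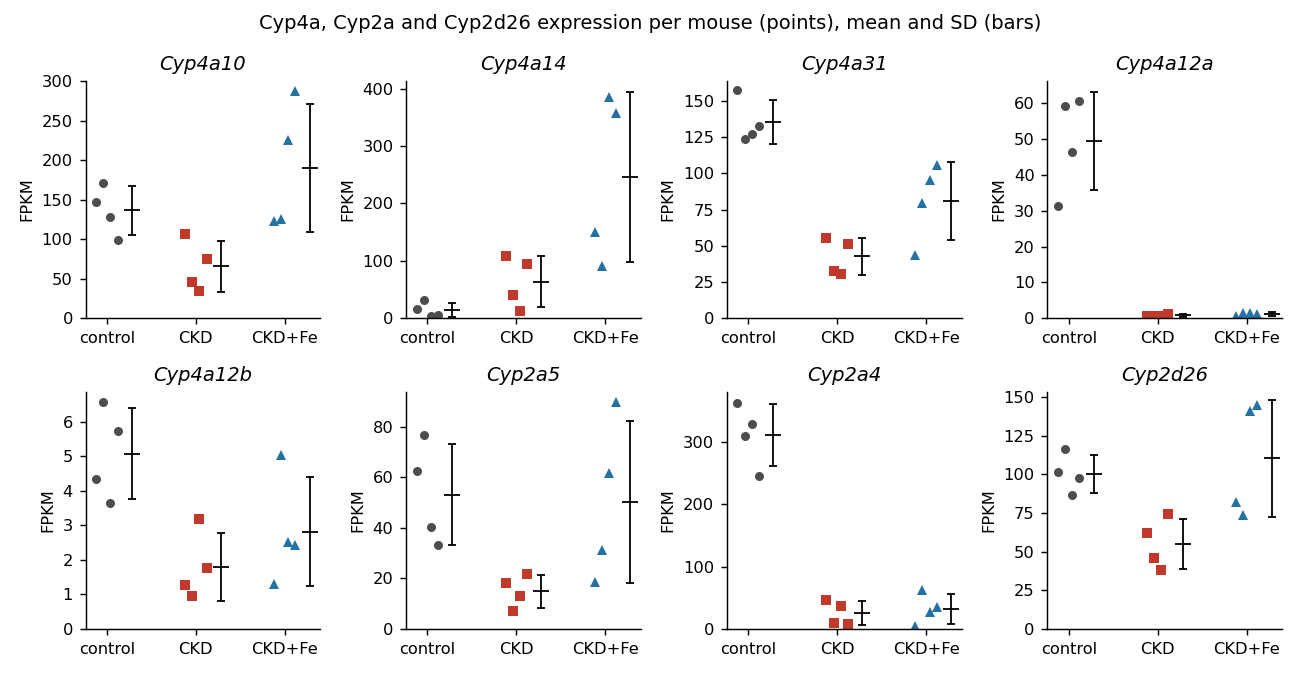
FPKM of 8 P450 genes in each mouse (points) with the mean and SD of each group (bars, n = 4), each panel on its own linear axis from 0. Cyp4a12a and Cyp2a4 stay low in CKD+Fe mice. The CKD+Fe points of Cyp4a10 lie within or above the control points. Those of Cyp4a14, whose CKD mean was already above the control mean, lie above them. For Cyp2a5 and Cyp2d26 some CKD+Fe points reach or pass the control points and others lie below all of them.

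The genes that rose were scarce in the control kidney. Cyp1b1, which oxidises estrogens and retinoids in stromal and vascular cells and is a target of the aryl hydrocarbon receptor (ENSMUSG00000024087, chr17:79706953-79715041, minus strand), was 7.65, 4.35, 6.05 and 7.28 FPKM in the 4 control mice, 31.3, 31.5, 19.7 and 35.4 FPKM in the 4 CKD mice and 31.6, 19.4, 26.1 and 30.7 FPKM in the 4 CKD+Fe mice. No adenine-fed mouse came down to the control range, and CKD and CKD+Fe mice overlapped. It rose by 2.05 ± 0.21 (SE, adjusted p = 3.45e-06) on the log2 scale, and with iron the value was -0.12 ± 0.21 (SE, adjusted p = 0.993). Its family members Cyp1a1 and Cyp1a2 did not reach the filter, and Cyp1a1 averaged 0.387 FPKM in control and 0.103 FPKM in CKD mice. Cyp2s1 (ENSMUSG00000040703, chr7:25802475-25816913, minus strand), found in epithelia outside the liver, was 4.56, 5.14, 4.3 and 5.35 FPKM in the 4 control mice, 16.1, 18.7, 12.2 and 19.8 FPKM in the 4 CKD mice and 21.99, 14.6, 14.6 and 16.3 FPKM in the 4 CKD+Fe mice, a rise of 1.58 ± 0.17 (SE, adjusted p = 4.47e-06) that separated the groups completely.

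Cyp4f18, a leukotriene hydroxylase of myeloid cells (ENSMUSG00000003484, chr8:71988482-72009626, minus strand), rose further than any other P450 gene in CKD. It was 0.929, 0.614, 1.25 and 0.606 FPKM in the 4 control mice, 6.79, 23.4, 12.6 and 12.98 FPKM in the 4 CKD mice and 15.6, 7.18, 10.8 and 9.85 FPKM in the 4 CKD+Fe mice. The lowest adenine-fed mouse had 6.79 FPKM and the highest control mouse 1.25 FPKM, and CKD mouse 022301, the highest, was also the CKD mouse with the highest sum of macrophage markers (3390 FPKM). The log2 fold change was 2.91 ± 0.29 (SE, adjusted p = 2.85e-06) in CKD, a 16.4-fold higher mean FPKM, and -0.26 ± 0.29 (SE, adjusted p = 0.979) with iron. All 7 macrophage markers rose in CKD, with a median log2 fold change of 3.41, and their part in the Cyp4f18 values was not tested.

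Cyp4f16 (ENSMUSG00000048440, chr17:32536558-32551798, plus strand) was 2.93, 2.99, 3.69 and 4.17 FPKM in the 4 control mice, 10.99, 17.5, 14.2 and 13.8 FPKM in the 4 CKD mice and 15.9, 12.7, 12.99 and 15.3 FPKM in the 4 CKD+Fe mice, and Cyp4v3 (ENSMUSG00000079057, chr8:45304944-45333216, minus strand), the mouse form of a fatty acid hydroxylase mutated in a human retinal dystrophy, was 1.3, 1.6, 2.03 and 1.77 FPKM in the 4 control mice, 7.57, 10.8, 6.9 and 10.4 FPKM in the 4 CKD mice and 11.5, 6.69, 9.31 and 10.1 FPKM in the 4 CKD+Fe mice. For both the adenine-fed mice, with or without iron, formed 1 band above the control mice. Cyp4f16 rose by 1.76 ± 0.16 (SE, adjusted p = 1.02e-06) and Cyp4v3 by 1.88 ± 0.18 (SE, adjusted p = 2.05e-06) on the log2 scale. Of the other Cyp4f genes tested, Cyp4f17 rose by 0.90 (adjusted p = 0.00325, lost under both other scalings) and Cyp4f13 had a log2 fold change of -0.08 (adjusted p = 0.601) at about 20 FPKM, which was called lower with the median of ratios (-0.68, adjusted p = 0.00078) and with quantile normalization (-0.44, adjusted p = 0.0199). Cyp3a13, the single Cyp3a gene above the filter among 9, rose from 0.209 ± 0.0297 to 1.03 ± 0.264 FPKM (SD, n = 4), a log2 fold change of 0.74 ± 0.13 (SE, adjusted p = 0.000296). It passed the filter through adenine-fed mice alone, and its call was lost with quantile normalization (0.022, adjusted p = 0.896).

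Promoter windows of RefSeq (GRCm38.p6, 300 bases) were matched for 20 of the 31 tested genes, 10 that fell, 8 that rose and 2 that did neither. The letters TATAAA, searched on both strands, were in 6 of the 10 that fell (Cyp2a4, Cyp2a5, Cyp2d9, Cyp2d26, Cyp2e1 and Cyp2j5) and in 0 of the 8 that rose, and 13.6% of all 32851 promoters hold them. In all of the 6 but Cyp2j5 they began 28 to 31 bases before the start site. The letters GCGTG, the core of the site bound by the aryl hydrocarbon receptor, were in 4 of the 8 that rose (Cyp1b1, Cyp2j9, Cyp4f16 and Cyp4v3) and in 1 of the 10 that fell (Cyp2j13), with a share of 32.4% among all promoters. The median number of CpG pairs was 5 in those that rose, 2 in those that fell and 7 over all genes. AGGTCA was in 4 of the 10 that fell (Cyp2a4, Cyp2a5, Cyp2f2 and Cyp2j5) and in 0 of the 8 that rose (16.3% of all promoters). In the near copies Cyp2a4 and Cyp2a5 it lay after the start site, at 31 and 30. Before the start site it lay in Cyp2f2, at -221, and in Cyp2j5, at -197. A direct repeat of AGGTCA with 1 base between was in none of the 20 and in 0.0396% of all promoters. These are matches of letters in a short window, and with so few genes no test was made. Of the 8 that rose, Cyp2j6, Cyp2j9 and Cyp3a13 lost that call under another scaling.

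Promoters of 2 genes that fell and 2 that rose, all holding the marked letters, are given as examples and do not stand for their groups. Capitals mark TATAAA or its reverse complement in Cyp2e1 (chr7:140763569-140763868 on the plus strand) and Cyp2d9 (chr15:82452127-82452426 on the plus strand), and GCGTG or its reverse complement in Cyp1b1 (chr17:79715012-79715311 on the minus strand) and Cyp4v3 (chr8:45333114-45333413 on the minus strand).
Cyp2e1: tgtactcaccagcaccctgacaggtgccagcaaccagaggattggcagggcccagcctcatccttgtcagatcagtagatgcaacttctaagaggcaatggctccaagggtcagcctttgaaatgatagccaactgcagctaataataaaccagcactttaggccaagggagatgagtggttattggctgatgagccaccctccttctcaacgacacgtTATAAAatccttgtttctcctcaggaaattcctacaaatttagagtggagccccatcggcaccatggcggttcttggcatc
Cyp2d9: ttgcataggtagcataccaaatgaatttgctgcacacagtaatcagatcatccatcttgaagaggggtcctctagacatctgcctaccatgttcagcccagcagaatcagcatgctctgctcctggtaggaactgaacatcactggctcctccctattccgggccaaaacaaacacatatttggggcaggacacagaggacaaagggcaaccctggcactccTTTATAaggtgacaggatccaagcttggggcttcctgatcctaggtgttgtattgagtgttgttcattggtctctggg
Cyp1b1: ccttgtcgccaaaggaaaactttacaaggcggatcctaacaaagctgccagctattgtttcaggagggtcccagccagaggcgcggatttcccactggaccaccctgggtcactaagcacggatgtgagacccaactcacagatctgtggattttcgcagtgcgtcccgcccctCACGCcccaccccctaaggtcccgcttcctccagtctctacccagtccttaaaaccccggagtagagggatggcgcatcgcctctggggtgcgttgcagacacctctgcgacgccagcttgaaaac
Cyp4v3: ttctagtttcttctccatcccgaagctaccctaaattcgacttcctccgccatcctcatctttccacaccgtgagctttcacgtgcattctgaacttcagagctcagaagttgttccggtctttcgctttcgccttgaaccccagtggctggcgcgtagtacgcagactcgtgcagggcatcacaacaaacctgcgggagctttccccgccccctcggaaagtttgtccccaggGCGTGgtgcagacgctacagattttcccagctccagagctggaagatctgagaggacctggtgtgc
The windows of Cyp1b1 and Cyp4v3 hold 16 and 17 CpG pairs, and those of Cyp2e1 and Cyp2d9 hold 4 and 1. Over all matched windows, the 8 genes that rose held 1 to 17 CpG pairs and the 10 that fell 0 to 5.

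Iron dextran was compared with PBS among adenine-fed mice to see which P450 genes differed after treatment. By limma with Benjamini-Hochberg adjustment 0 of the 31 P450 genes were called in either direction at an adjusted p under 0.05, and of all 13148 genes 1 was called (0.00761% higher, 0% lower). With an unadjusted p below 0.05, 8 P450 genes were higher in CKD+Fe mice (3.28% of all genes) and 0 were lower (2.73% of all genes). The 8 were Cyp2a5, Cyp2d9, Cyp2d26, Cyp2f2, Cyp2j7, Cyp4a10, Cyp4a14 and Cyp4a31. Of these, Cyp2j7 met the filter through 1 control and 3 CKD+Fe mice, and Cyp2f2 through 3 control mice and 1 CKD+Fe mouse. Neither reached 1 FPKM in any CKD mouse, so their place in this count is partly set by the filter. The log2 fold change was above 0 for 26 of the 31, against 49.9% of all genes, with a median of 0.28 against 0.00. In the same comparison the 13 proximal tubule markers had a median of 0.475, with 0 called and 4 at an unadjusted p under 0.05 by limma. Their part in the P450 values was not tested. For Cyp4a10 and Cyp2u1 all 4 CKD+Fe mice exceeded all 4 CKD mice (1.35% of all genes), and for 0 P450 genes all were below (1.09% of all genes).

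Some alternatives gave calls for single P450 genes. With limma array weights, which give less weight to mice that scatter, 4 were called higher (0.601% of all genes), Cyp4a10 with a log2 fold change of 1.52 (adjusted p = 0.0346), Cyp2d26 with 1.003 (adjusted p = 0.0451), Cyp2a5 with 1.81 (adjusted p = 0.0475) and Cyp4a31 with 0.94 (adjusted p = 0.0475). Without the mouse farthest from its group in each group, an alternative chosen after seeing the data, Cyp4a31 was called at 1.01 (adjusted p = 0.0487). With each mouse left out in turn 0 were called. CKD+Fe mouse 042702 had the lowest Cyp2a4, Cyp4b1, Cyp2e1 and Cyp4a31 values of its group, and the lowest sum of proximal tubule markers (1190 FPKM, where the other 3 had 2370 to 2960 FPKM).

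**Figure D4:**
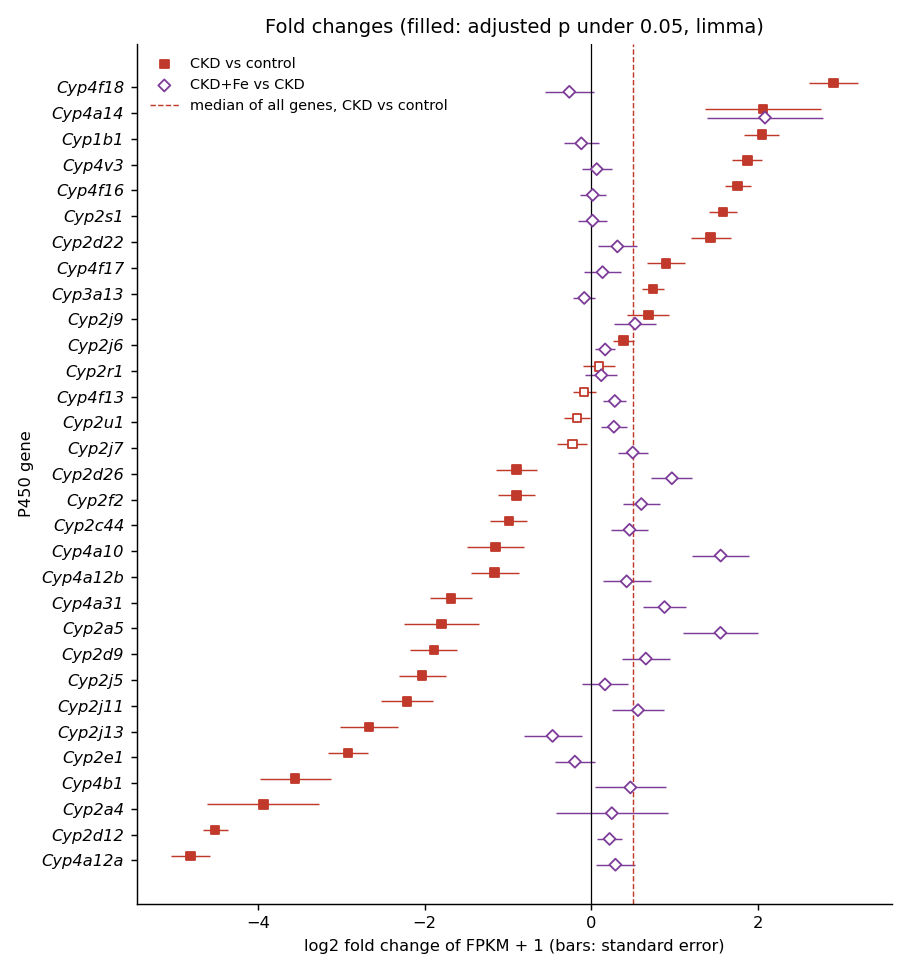
Log2 fold change of FPKM + 1 with its standard error for the 31 tested P450 genes in CKD against control mice (squares) and in CKD+Fe against CKD mice (diamonds), where filled symbols have an adjusted p under 0.05. Squares run from -4.81 for Cyp4a12a to 2.91 for Cyp4f18 with 27 filled, the diamonds are all open, and the dashed line is the median of all genes (0.50) in CKD against control.

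Against control mice, CKD+Fe mice had 11 P450 genes higher (54.4% of all genes tested) and 12 lower (11% of all genes) by limma, with a median log2 fold change of 0.11 against 0.50 for all genes. This comparison shares the control mice with the first and the CKD+Fe mice with the second, so it is not independent of either. The CKD+Fe mice lay wholly above the control mice for 11 P450 genes (50.4% of all genes) and wholly below them for 10 (9.85% of all genes). Over all genes tested, 1748 were lower in CKD and 1442 in CKD+Fe against control mice. How many of the first lacked the second call was not counted. Among the P450 genes that were lower in CKD mice, 4 had no call in CKD+Fe against control mice. They were Cyp2a5, Cyp2d26, Cyp2f2 (log2 fold change -0.29 ± 0.22 (SE, adjusted p = 0.261)) and Cyp4a10. Of these, Cyp2f2 was called lower with the median of ratios (-0.60, adjusted p = 0.0278) and with quantile normalization (-1.03, adjusted p = 0.000671), and Cyp2a5 moved to -0.84 (adjusted p = 0.134) with the median of ratios. Under all 3 scalings 7 P450 genes were called higher and 11 lower in this comparison. For Cyp4a12a, Cyp2d12, Cyp2a4, Cyp2e1, Cyp2j13 and Cyp4b1 the log2 fold change in CKD+Fe against control mice was still between -4.52 and -3.08.

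By subfamily, the sum of the 8 Cyp4a genes averaged 340.6 ± 41.6 FPKM (SD, n = 4) over control, 174.6 ± 88.3 over CKD and 521.3 ± 244 over CKD+Fe mice, and the sum of the 9 Cyp2d genes was 278.5 ± 28.9, 114.8 ± 21.96 and 202.5 ± 60.3 FPKM. The 4 Cyp2a genes summed to 364.8 ± 62.3, 40.3 ± 21.7 and 82.4 ± 42.9 FPKM, and the 8 Cyp2j genes to 996 ± 227, 251.9 ± 78.1 and 286.1 ± 89.6 FPKM. Of these 4 subfamilies, Cyp4a had a mean in CKD+Fe mice above that of control mice, with a wide spread between mice. The 9 Cyp4f genes summed to 29.0 ± 1.13, 53.3 ± 14.3 and 55.4 ± 5.14 FPKM.

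Of the 81 genes, 50 did not reach the filter. Of these, 9 were at 0 in all 12 mice and 41 had a value above 0 in at least 1 mouse, with a highest single value of 1.74 FPKM. They include 14 of 15 Cyp2c genes, all 5 Cyp2b genes, 8 of 9 Cyp3a genes and both Cyp1a genes, which are best known from liver. The 5 with the highest mean were Cyp2d37-ps, Cyp4f14, Cyp1a1, Cyp4f15 and Cyp2c69, and only Cyp2d37-ps, a gene whose name marks it as a pseudogene, was higher in the adenine-fed groups, at 0 in control, 0.359 FPKM in CKD and, with iron, 0.702 FPKM on average.

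The genes that serve the P450 enzymes were read from lists of their own. Of 6 electron donors and partners, 2 fell in CKD and 0 rose, where 13.3% of all genes tested fell and 54.6% rose. Por, the reductase that feeds all of these enzymes, went from 124.9 ± 25.2 to 56.9 ± 13.8 FPKM (log2 fold change -1.14, adjusted p = 2.04e-04), and Cyb5a, cytochrome b5, from 1435 ± 158 to 361.5 ± 69.0 FPKM (log2 fold change -1.999, adjusted p = 6.28e-07). Of 8 tested enzymes that share the eicosanoid pathways, 6 rose and 1 fell, beside the same shares of all genes. Ephx2, the soluble epoxide hydrolase that breaks down the products of the epoxygenases, fell by 2.32 on the log2 scale (adjusted p = 6.45e-07), while Pla2g4a, which releases arachidonic acid, rose by 1.76 (adjusted p = 1.03e-05) and Ptgs1, a cyclooxygenase, by 1.11 (adjusted p = 1.72e-05).

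Of 8 tested transcription regulators of P450 genes, 2 fell and 2 rose in CKD, where 13.3% of all genes tested fell and 54.6% rose. Hnf4a, which maintains the hepatocyte and proximal tubule program, had a log2 fold change of -1.52 (adjusted p = 9.53e-05), and the bile acid receptor gene Nr1h4 had -0.72 (adjusted p = 0.0103). Ahr rose by 1.56 (adjusted p = 5.46e-06) and its partner Arnt by 1.14 (adjusted p = 1.21e-04). In the other P450 families 10 of 20 listed genes were tested, of which 6 rose and 1 fell, near the shares of all genes. Cyp7b1, an oxysterol hydroxylase, fell from 205 ± 47.6 to 11.2 ± 1.93 FPKM (SD, n = 4; log2 fold change -4.06, adjusted p = 6.01e-08), and Cyp27b1, which makes active vitamin D, rose by 2.12 (adjusted p = 0.00247). In CKD+Fe against CKD mice 0 genes of these 4 lists were called by limma, with 4 of 32 at an unadjusted p under 0.05. Of all genes tested, 3.28% were higher and 2.73% lower at that unadjusted p.

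Markers of other cells were at hand for the same mice, and of all genes tested 13.3% fell and 54.6% rose in CKD. Of the 13 proximal tubule markers 12 fell in CKD and 0 rose, with a median log2 fold change of -1.95, and all 6 fibroblast markers rose, with a median of 2.43. Of 4 loop and distal nephron markers 1 fell and of 4 endothelial markers 1 fell. Urothelium markers summed to 132 FPKM in control mouse 042301 and to 0.844, 45.4 and 2.17 FPKM in control mice 012811, 012822 and 042310. In the 18 P450 genes given by mouse, 0 of 54 groups of 4 held an outlier by Dixon's test. With 4 values that test flags only a very wide gap, so it cannot show that mouse 042301 matched its group. The part of urothelium in the P450 values of that mouse was not tested. Adrenal cortex markers stayed at 0.145 to 2.47 FPKM in sum. Of 5 tested liver markers, which the kidney also expresses in part, 2 fell and 1 rose.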

How the data were processed

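Whole kidney RNA of 12 mice was made into stranded mRNA libraries (TruSeq) and sequenced with single-end reads of 50 cycles on a HiSeq4000. The submitters' processing notes name bcl2fastq 2.19, STAR 2.5.2, Cufflinks 2.1.1 and GRCm38, and the annotation release is not given in the sources used here. The authors deposited FPKM values, 1 per gene and mouse. Of these, 30 values in 17 genes carry a failed status and were treated as missing, none of them in a P450 gene. The authors tested counts with DESeq2, and counts were not used here.

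limma 3.58.1 (R 4.3.3) was fitted to log2(FPKM + 1) of all 12 mice at once, with a variance trend, for the 13148 genes at 1 FPKM or more in at least 4 mice. Two-sided p-values were corrected by Benjamini-Hochberg across those genes, and 0.05 was the threshold. The fit was run on simulated data drawn with the spread of the control mice and no overall shift. Those data lack the shift between groups seen here, so that run does not bear on the scaling or on the calls. Exact two-sided permutation tests of single genes ran through the 70 arrangements. Each mouse is 1 library, so the spread between libraries is that between mice. Positions are those of the file in GRCm38 and overlap the GENCODE M21 gene for 81 of 81 genes. Shared reads were judged from 50-base words of GENCODE M21 transcripts, and 23 of the 31 tested genes had at least 90% unique words. RefSeq promoters were matched for 65 of the 81 genes.

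The P450 genes and the lists of partner genes and markers were chosen with earlier results of these data known. Values by mouse are given for the 6 widest rises and falls among called genes in CKD, the 6 highest control means, the 4 smallest unadjusted p with iron and the tested gene of family 1. A listed regulator gene and a motif are not reported here. Outside the family at most 4 called genes a list are named, and Ppara, PPARα being named in the text, was added after its values were seen. Alternatives were a pseudocount of 0.1, other filters, scalings and weights, no variance trend, only the groups compared, a threshold of 0.5 (the cutoff in the study's methods) and each mouse left out.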

Additional observations from a re-analysis of the deposited data

How the results depend on the processing

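Among the 18 P450 genes given by mouse, 300 alternative values in CKD against control kept their direction and side of the threshold, 6 lost the call (all Cyp4a14), and none reversed. The number of P450 genes higher in CKD against control (11) was 7 with the median of ratios and 6 with quantile normalization, and 9 to 11 with a mouse left out, while the number lower (16) was 16 with each mouse left out and 14 to 21 under the other alternatives. In CKD+Fe against CKD the number higher (0) was 4 with array weights, 4 at a threshold of 0.5 and 1 without the 3 mice farthest from their groups, and 0 with each mouse left out. In CKD+Fe against control the number higher (11) was 7 with quantile normalization, and the number lower (12) was 10 to 12 with a mouse left out. For the other P450 families the number higher in CKD (6) was 3 with the median of ratios and 1 with quantile normalization, the number lower (1) was 2 with either and at a threshold of 0.5, and in CKD+Fe against control the number higher (8) was 4 and 1. For the partner lists the number higher in CKD (8) was 5 with the median of ratios and the number lower (5) was 10, or 8 with quantile normalization or array weights and 9 at a threshold of 0.5. With iron 1 was called with array weights and 1 without the 3 mice. In CKD+Fe against control the number higher (10) was 6 at a mean of 5 FPKM or with the median of ratios and 4 with quantile normalization, and the number lower (6) was 10 with the median of ratios. Shares of all genes are given above for the main setting and for array weights, and not for the other alternatives.

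Among the 18 genes given by mouse, signs turned only in the comparisons that involve CKD+Fe mice. In CKD+Fe against CKD these were Cyp2s1 at -0.0021 with quantile normalization, -0.17 with array weights and -0.24 without the 3 mice, and, without the 3 mice, Cyp2e1 at 0.032, Cyp4f16 at -0.027 and Cyp4v3 at -0.13. In CKD+Fe against control they were Cyp2a5 at 0.038 without the 3 mice, and Cyp2d26 at -0.53 and Cyp4a10 at -0.20 with the median of ratios. Of the other 13 tested genes, Cyp2f2, Cyp2j6, Cyp2j7, Cyp2j9, Cyp2r1, Cyp2u1, Cyp3a13 and Cyp4f13 turned sign in some comparison under another scaling or without the 3 mice, among them the called rises in CKD+Fe against control of Cyp2j6 (0.56, to -0.02 with the median of ratios) and Cyp3a13 (0.66, to -0.051 with quantile normalization).
When 1 mouse at a time was left out, log2 fold changes crossed 0 in CKD+Fe against CKD for Cyp1b1 -0.29 to 0.025, Cyp2a4 -0.22 to 0.98, Cyp2j5 -0.045 to 0.37, Cyp2s1 -0.12 to 0.10, Cyp4f16 -0.087 to 0.12, Cyp4f18 -0.54 to 0.013 and Cyp4v3 -0.035 to 0.20, and in CKD+Fe against control for Cyp2a5 -0.60 to 0.14 and Cyp2d26 -0.076 to 0.25. The cause was not tested. No paired analysis was possible because the groups share no replicate numbers. Depth limits the genes near 1 FPKM, such as Cyp2f2 and Cyp2j7, and reads shared between near copies limit Cyp2a4, Cyp2a5, Cyp2d9, Cyp4a10, Cyp4a12a, Cyp4a12b, Cyp4a31 and Cyp4f16.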

Other observations

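Cyp4a14 ranged from 90.7 to 385 FPKM and Cyp4a10 from 123 to 288 FPKM in CKD+Fe mice, and CKD+Fe mice 111710 and 122320 were the highest for both. The ratio of Cyp4a14 to Cyp4a10 in FPKM was 0.0353 to 0.183 in control, 0.372 to 1.26 in CKD and 0.724 to 1.71 in CKD+Fe mice, so that it was higher in every adenine-fed mouse than in any control mouse. Cyp2a5 and Cyp2d26 were also highest in mice 111710 and 122320, whereas Cyp2j5 and Cyp4b1 were highest in mouse 062910. These are values of 4 mice and were not tested.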
